A study of Mus musculus with 32 samples.

Results

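The proneural genes are a family of basic helix-loop-helix (bHLH) transcription factor genes that start neuron formation in vertebrate neural tissue. The 8 members described here were taken by gene symbol, by a rule that uses no measured value but was set with earlier results of these data known, out of the 55492 rows of the deposited expression table: Neurog1, Neurog2, Neurod1, Neurod4, Nhlh1, Atoh7, Atoh1 and Olig2. All 8 had a row. The series measured polyadenylated RNA in mouse embryonic stem cells (day 0) and in retinal organoids, aggregates grown toward retina from such cells (days 2, 4 and 6), with 2 libraries in each of 16 groups. WT is the Rx:GFP reporter stem cell line. KO is the Mettl3 knockout, Mettl3 encoding the methyltransferase that puts m6A, a methyl mark on adenosine, on RNA. "No Dex" and "Dex" are the KO line overexpressing WT METTL3 fused to GRBD, kept without dexamethasone or given 10 µM of it, and every group other than WT carries the knockout. The fusion protein is labelled as cytosolic without dexamethasone and as nuclear with it. The organoid medium held 0.1 µM AGN in all lines. Libraries of the day 0 Dex group are labelled as Dex treated, although the treatment protocol lists only 2, 4 and 6 days of the drug. No WT or KO culture with dexamethasone was analysed here, so an effect of the drug itself and one of moving the fusion protein cannot be told apart. The labels name a single KO line and a single fusion line without stating that the duplicates of a group were separate cultures, so p-values measure the spread between these libraries, which may be technical.

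In the developing nervous system the neurogenins (Neurog1 and Neurog2) act early, in dividing progenitors, and switch on Delta ligands, which signal through Notch to Hes repressors in neighbouring cells. Neurod1, Neurod4 and Nhlh1 act after them, as cells leave the cycle and become neurons. In the retina, Neurog2 and Atoh7 mark progenitors at the front of neurogenesis, and Atoh7 is needed for retinal ganglion cells. Atoh1 specifies hindbrain and spinal neurons and inner ear hair cells, and Olig2 is best known in motor neuron and oligodendrocyte progenitors. All of these proteins bind DNA as dimers with ubiquitous E proteins, at E-box sites, and are opposed by Id proteins.

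The stretch of coding DNA for the basic region, the part of the protein that contacts the E-box, is shown for each gene because it defines the family. Each run of 39 bases was read from the longest GENCODE M21 transcript (GRCm38), and capitals mark the codons of the arginine-glutamate-arginine motif at its centre.
Neurog1: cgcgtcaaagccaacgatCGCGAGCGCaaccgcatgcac
Neurog2: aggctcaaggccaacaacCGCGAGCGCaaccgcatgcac
Neurod1: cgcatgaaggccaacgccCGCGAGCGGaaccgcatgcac
Neurod4: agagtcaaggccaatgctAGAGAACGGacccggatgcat
Nhlh1: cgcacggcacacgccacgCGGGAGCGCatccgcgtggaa
Atoh7: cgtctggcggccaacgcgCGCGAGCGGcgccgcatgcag
Atoh1: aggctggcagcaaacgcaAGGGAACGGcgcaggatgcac
Olig2: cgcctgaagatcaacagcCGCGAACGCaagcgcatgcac
Over 51 aligned bases of coding DNA around this motif, Neurog1 and Neurog2 were identical at 84.3%, the closest pair of the 8. Neurod1 and Atoh7 followed with 82.4%, and Neurog1 and Neurod1 with 78.4%. Nhlh1 stood apart, sharing between 39.2% (with Neurod4) and 56.9% (with Olig2). The likeness of sequence and the likeness of expression, given below, ordered the pairs differently: Neurod4 and Nhlh1, with the lowest identity, had the most similar time courses of the 6 genes tested.

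In GRCm38, Neurod4 and Atoh7 lie far apart on chromosome 10 and the others on chromosomes of their own. Neurog1 (ENSMUSG00000048904; chromosome 13, 56250478 to 56252163, minus strand) and Atoh1 (ENSMUSG00000073043; chromosome 6, 64729125 to 64731245, plus strand) have 1 exon in the longest transcript, as has Atoh7 (ENSMUSG00000036816; chromosome 10, 63099651 to 63101279, plus strand). The others have 2 exons. These are Neurog2 (ENSMUSG00000027967; chromosome 3, 127633135 to 127635631, plus strand), Neurod1 (ENSMUSG00000034701; chromosome 2, 79452521 to 79456751, minus strand), Neurod4 (ENSMUSG00000048015; chromosome 10, 130268152 to 130280240, minus strand), Olig2 (ENSMUSG00000039830; chromosome 16, 91225457 to 91228677, plus strand) and Nhlh1 (ENSMUSG00000051251; chromosome 1, 172052292 to 172057573, minus strand). Exons of Neurod1 overlap those of Cerkl on the same strand, where strand cannot tell reads of the overlap apart. They also overlap the antisense gene Gm26755, whose reads cannot be told apart if strand was not used in counting. Group means of Cerkl ran from 0.05 to 0.74 FPKM.

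The unit is FPKM, fragments normalised to transcript length and library size, as the authors deposited it. Since low FPKM values fall on steps of whole fragments, the depth of a library could be estimated, and its median was 37.4 M fragments (M, mega), the shallowest library having 28.9 M and the deepest 55.8 M. At that depth 3 fragments correspond to between 0.018 and 0.078 FPKM over the 8 genes, an upper limit for a gene listed at 0 that covers counting error only. Duplicates correlated across genes at Pearson r of 0.9922 to 0.9955. The targeted gene does not check the labels: group means of Mettl3 ran from 36.6 to 43.4 FPKM in libraries labelled KO and from 33.5 to 40.7 FPKM in WT, and from 46.6 to 75.0 FPKM in the fusion line. KO below means the libraries labelled KO. Genes with 1 FPKM or more in 2 or more of the 32 libraries were tested, 16276 in all. Of the 8 members 6 passed. Atoh1, with a highest value of 0.38 FPKM, and Atoh7, with a highest value of 0.81 FPKM, did not, and all 8 are given by their values. Log2 changes are differences of log2(FPKM + 1), which understates the change of low genes, with limma's standard error (SE), and "called" means a p under 0.05 after Benjamini-Hochberg adjustment over all tested genes.

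The retinal identity of the cultures differed between the lines. The summed level of 5 retinal progenitor markers (Rax, Six3, Six6, Lhx2 and Pax6) at day 6 was 646.7 and 680.9 FPKM in the WT libraries, 117 and 118 FPKM in KO, 182 and 186 FPKM in no Dex, and 416.3 and 416.5 FPKM in Dex. All 5 markers had a group mean of at least 1 FPKM in WT, 2 in KO, 3 in no Dex and 5 in Dex, and none was at 0. In KO at day 6, 3 of the 5 defining retinal markers were thus under 1 FPKM, and the label "retinal organoid" is used for them as given.

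Which proneural gene dominated depended on the day and the line. In every library at days 0 and 2 Neurod1 had the highest FPKM of the 8 genes. At day 4 Neurog2 led in WT, with 76.5% and 76.9% of the summed FPKM of the 8 genes in the duplicates. It also led at that day in no Dex (59.8% and 57.8%) and in Dex (77.9% and 79.3%), whereas Neurod1 led in KO (45.5% and 54.0%). At day 6 the leading gene was Neurog1 in KO and in no Dex, Neurog2 in Dex and Olig2 in WT. The summed level of the 8 genes at day 6 was 2.58 and 2.21 FPKM in WT, 42.9 and 44.3 FPKM in KO, 24.6 and 25.4 FPKM in no Dex, and 12.0 and 12.8 FPKM in Dex. The WT sum was 8.78 and 8.58 FPKM at day 4, so WT was the line whose summed level was lower at day 6 than at day 4.

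**Figure D1:**
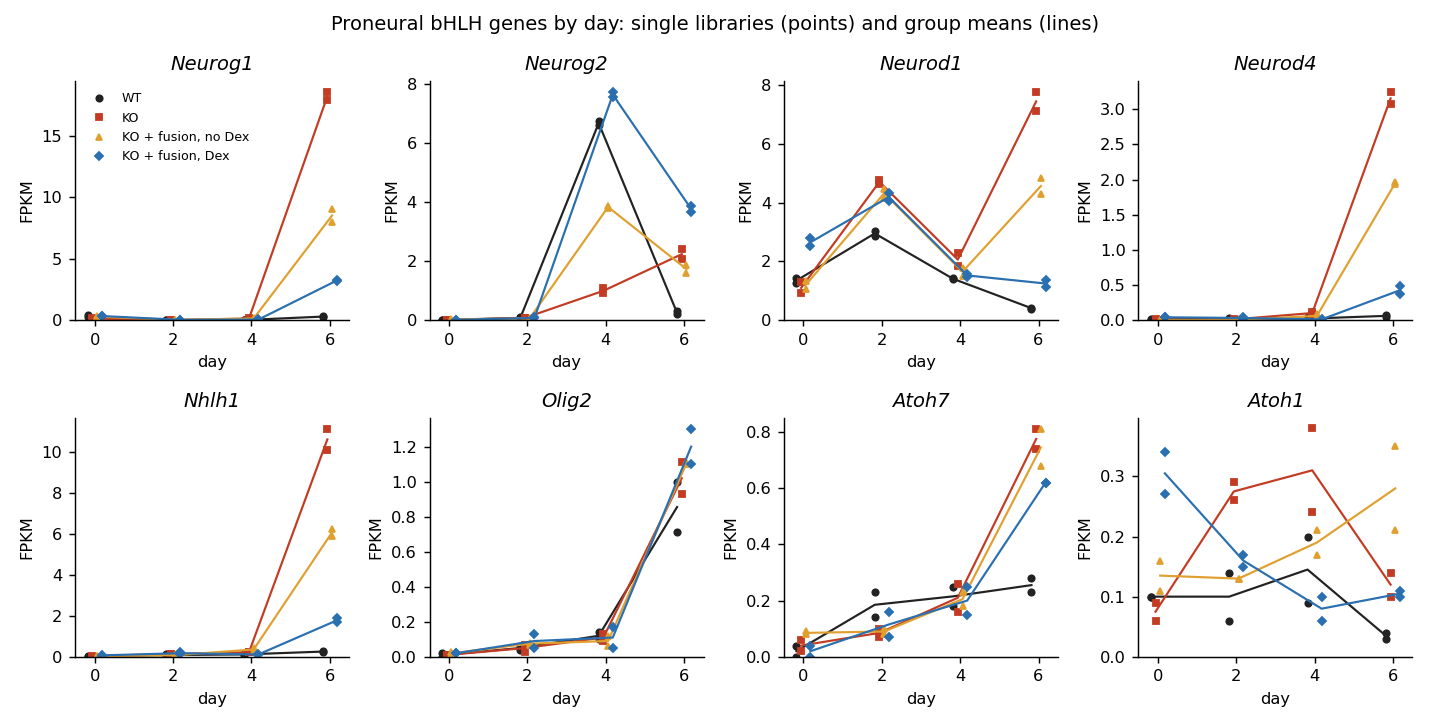
FPKM (vertical axis, linear, a scale of its own in each panel) against day (horizontal axis) for the 8 genes, where each point is a library, shifted slightly sideways by line, and lines join group means of 2 libraries. Neurog2 in WT peaks at day 4 at 6.66 FPKM, whereas Neurog1, Neurod4 and Nhlh1 stay low until day 6 and are then highest in KO.

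Neurog2, the neurogenin that works in the early retina, was the member that was low in KO at day 4. Its libraries read 6.72 and 6.60 FPKM in WT, 1.07 and 0.91 FPKM in KO, 3.87 and 3.78 FPKM in no Dex, and 7.70 and 7.55 FPKM in Dex. The groups did not overlap, with KO lowest, no Dex between and Dex slightly above WT. At days 0 and 2 no library of any line was above 0.10 FPKM. The KO level at day 4 was 6.73-fold lower than WT in mean FPKM, a change of -1.95 ± 0.06 on the log2 scale (SE; limma adjusted p = 3.479e-15). It was 3.86-fold higher in no Dex than in KO (log2 change 1.28 ± 0.06, limma adjusted p = 5.014e-11), and 1.99-fold higher in Dex than in no Dex (0.84 ± 0.06, limma adjusted p = 3.225e-09). Between Dex and WT the change was 0.17 ± 0.06 (limma adjusted p = 0.03045), a call that was lost after rescaling (0.13), with no filter on low values, and with any of the 4 compared libraries left out (0.16 to 0.18). In bulk RNA, fewer cells that express a gene and less RNA per cell cannot be told apart, here and in all results below.

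The direction of the Neurog2 difference turned over between days 4 and 6. The day 6 libraries read 0.30 and 0.19 FPKM in WT, 2.05 and 2.41 FPKM in KO, 1.59 and 1.86 FPKM in no Dex, and 3.67 and 3.85 FPKM in Dex. WT was now the lowest group and Dex the highest, with no overlap between groups. The WT values rest on about 25 and 14 fragments. Within WT, Neurog2 fell by 2.62 on the log2 scale from day 4 to day 6 (limma adjusted p = 1.302e-17), whereas within KO it rose by 0.70 (limma adjusted p = 6.417e-09). It fell by 0.83 in no Dex and by 0.86 in Dex over the same days (limma adjusted p = 4.708e-10 and 3.05e-10). KO was 9.10-fold above WT at day 6 (1.38 ± 0.06, limma adjusted p = 2.299e-13), and Dex was 15.3-fold above WT (1.94 ± 0.06, limma adjusted p = 2.955e-15). Dex also exceeded no Dex, by 0.81 ± 0.06 (limma adjusted p = 4.039e-09). No Dex was lower than KO by a log2 change of -0.24 ± 0.06 (limma adjusted p = 0.002661), a call that was lost without KO day 6 replicate 2 (-0.16), without no Dex day 6 replicate 1 (-0.17), with a pseudocount of 0.1 (-0.35) and when only these groups were fitted.

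Neurog1, the other neurogenin, had the largest change of the 6 tested members in KO against WT at day 6. It was near 0 at day 4, at 0 in both WT libraries and at 0.15 and 0.10 FPKM in KO. Day 6 libraries read 0.26 and 0.31 FPKM in WT, 18.53 and 17.89 FPKM in KO, 8.0 and 9.02 FPKM in no Dex, and 3.28 and 3.16 FPKM in Dex. The 4 lines were fully separate at day 6, ordered KO, no Dex, Dex, WT from high to low. The FPKM values correspond to about 16 and 17 fragments in WT and 1081 and 1195 fragments in KO. KO was 63.9-fold above WT in mean FPKM (log2 change 3.90 ± 0.07, limma adjusted p = 4.134e-19). No Dex was 2.14-fold below KO (-1.02 ± 0.07, limma adjusted p = 8.325e-10) and Dex was a further 2.64-fold below no Dex (-1.17 ± 0.07, limma adjusted p = 2.184e-10). Dex stayed 11.3-fold above WT (1.72 ± 0.07, limma adjusted p = 1.873e-13). In WT itself Neurog1 rose by 0.36 from day 4 to day 6 (limma adjusted p = 0.0002179). Day 0 libraries read 0.23 and 0.38 FPKM in WT and 0.04 and 0.21 FPKM in KO. KO was then lower by a log2 change of -0.22 ± 0.07 (limma adjusted p = 0.0196), a call lost without KO day 0 replicate 1 (-0.11) or WT day 0 replicate 2 (-0.13). The call was also lost when only these groups were fitted. It rests on about 9 and 22 fragments in WT and 2 and 10 in KO.

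The neurogenins differed in opposite directions between the fusion line with and without dexamethasone. Neurog2 made up 52.8% and 54.9% of the summed FPKM of both neurogenins in the Dex libraries at day 6, 16.6% and 17.1% in no Dex, and 9.96% and 11.9% in KO. The WT libraries had 53.6% and 38.0%, of a sum that was low in both. Dex thus had less Neurog1 and more Neurog2 than no Dex in every library.

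**Figure D2:**
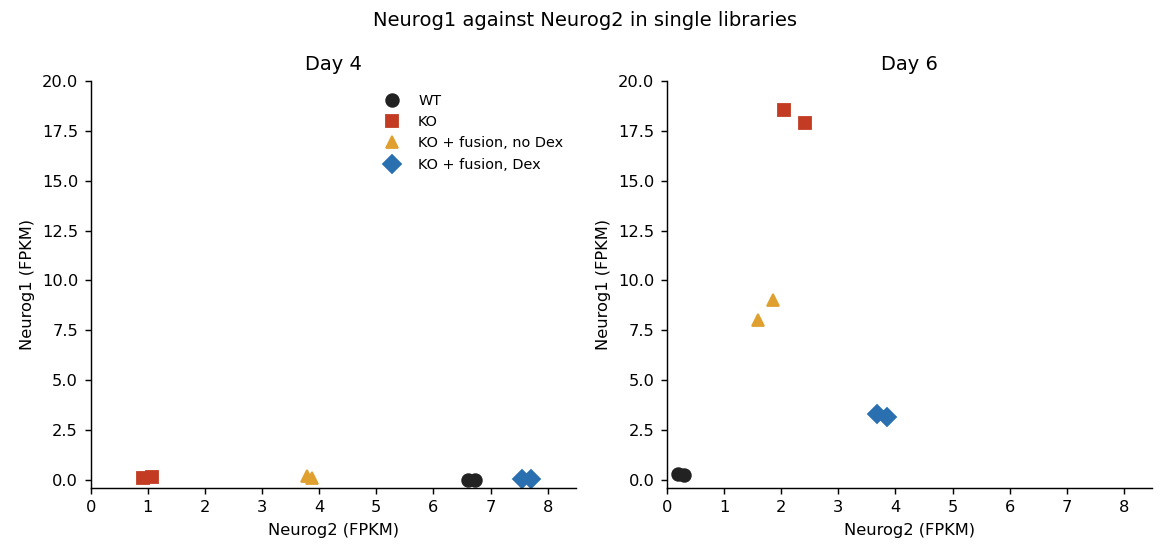
Neurog1 (vertical axis, FPKM) against Neurog2 (horizontal axis, FPKM) in single libraries at day 4 (left) and day 6 (right), on the same linear axes. At day 4 the lines are spread along the Neurog2 axis with Neurog1 near 0, and at day 6 KO lies at 18.2 FPKM of Neurog1 and 2.23 FPKM of Neurog2 on average, against 3.22 and 3.76 FPKM in Dex.

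Nhlh1, a gene of newly formed neurons, acts after the neurogenins. Day 6 libraries read 0.25 and 0.26 FPKM in WT, 10.13 and 11.14 FPKM in KO, 5.91 and 6.26 FPKM in no Dex, and 1.68 and 1.88 FPKM in Dex. The order was that of Neurog1, with no overlap between lines. The WT values rest on about 23 and 22 fragments. KO was 41.7-fold above WT (log2 change 3.21 ± 0.07, limma adjusted p = 1.9e-18), no Dex was 1.75-fold below KO (-0.71 ± 0.07, limma adjusted p = 3.274e-08) and Dex was 3.42-fold below no Dex (-1.35 ± 0.07, limma adjusted p = 7.761e-12). At day 4 all libraries were at or under 0.44 FPKM. Dex (0.11 and 0.12 FPKM) was then called lower than no Dex (0.28 and 0.44 FPKM), by -0.28 ± 0.07 (limma adjusted p = 0.001992). That call was lost without no Dex day 4 replicate 2 (-0.20) and when only these groups were fitted.

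Neurod4, a neuronal differentiation factor also known as Math3, was close to 0 in every line up to day 4. Its highest value at days 0, 2 and 4 was 0.12 FPKM, in a KO library at day 4. Day 6 libraries read 0.07 and 0.05 FPKM in WT, 3.24 and 3.07 FPKM in KO, 1.96 and 1.94 FPKM in no Dex, and 0.37 and 0.48 FPKM in Dex. It thus had the same order of lines as Neurog1 and Nhlh1. KO was 52.6-fold above a WT level that rests on 6 and 9 fragments (log2 change 1.97 ± 0.05, limma adjusted p = 5.146e-17). No Dex was 1.62-fold below KO (-0.49 ± 0.05, limma adjusted p = 1.148e-07) and Dex 4.59-fold below no Dex (-1.05 ± 0.05, limma adjusted p = 5.44e-12).

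Neurod1, which acts in differentiating neurons and later in photoreceptors and amacrine cells of the retina, differed from the others by its level in stem cells and early organoids. Day 0 libraries read 1.44 and 1.25 FPKM in WT, 0.91 and 1.28 FPKM in KO, 1.34 and 1.06 FPKM in no Dex, and 2.51 and 2.79 FPKM in Dex. The Dex stem cells alone were separate, by a log2 change of 0.73 ± 0.09 over no Dex (limma adjusted p = 2.973e-06). Neurod1 rose from day 0 to day 2 and fell from day 2 to day 4 in all 4 lines, with changes of 0.51 (Dex) to 1.45 (KO) and of -1.04 (Dex) to -0.72 (WT) on the log2 scale, all called. At day 2 KO (4.77 and 4.64 FPKM) was above WT (2.87 and 3.03 FPKM), by 0.53 ± 0.09 (limma adjusted p = 6.171e-05). After day 4 the lines parted. Day 6 libraries read 0.39 and 0.42 FPKM in WT, 7.12 and 7.77 FPKM in KO, 4.85 and 4.28 FPKM in no Dex, and 1.13 and 1.36 FPKM in Dex. Neurod1 fell by 0.78 from day 4 to day 6 in WT (limma adjusted p = 4.223e-07) and rose by 1.47 in KO and 1.07 in no Dex (limma adjusted p = 3.873e-11 and 3.821e-09), while the Dex change was -0.17 (limma adjusted p = 0.1201).

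Differences between the lines at day 6 placed Neurod1 with Neurog1, Neurod4 and Nhlh1. KO was 18.4-fold above WT in mean FPKM (log2 change 2.59 ± 0.09, limma adjusted p = 7.177e-15), no Dex was 1.63-fold below KO (-0.60 ± 0.09, limma adjusted p = 1.993e-05) and Dex was 3.67-fold below no Dex (-1.31 ± 0.09, limma adjusted p = 1.211e-09). At day 4, KO (1.83 and 2.29 FPKM) was called above WT (1.39 and 1.42 FPKM) by 0.34 ± 0.09 (limma adjusted p = 0.003312), a call lost without KO day 4 replicate 2 (0.23) and when only these groups were fitted. Cerkl, which shares exonic sequence with Neurod1, read 0.32 and 0.19 FPKM in WT and 0.75 and 0.64 FPKM in KO at day 6.

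Olig2 had no such separation at day 6. Its day 6 libraries read 1.00 and 0.71 FPKM in WT, 0.93 and 1.11 FPKM in KO, 1.11 and 1.10 FPKM in no Dex, and 1.10 and 1.30 FPKM in Dex. WT and KO overlapped, and so did KO, no Dex and Dex. In all libraries at days 0 to 4 it was at or under 0.17 FPKM, and it rose from day 4 to day 6 in each line, by 0.72 in WT, 0.86 in KO, 0.95 in no Dex and 0.99 in Dex on the log2 scale (limma adjusted p between 4.517e-10 and 4.179e-08). KO against WT was 0.13 ± 0.07 (limma adjusted p = 0.1418), and with WT day 6 replicate 1 left out it was 0.24 and called. Dex exceeded WT by 0.25 ± 0.07 (limma adjusted p = 0.006123), a call lost without WT day 6 replicate 2 (0.14) or Dex day 6 replicate 2 (0.18), with a pseudocount of 0.1 and when only these groups were fitted.

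Atoh7 and Atoh1 were too low for the filter, and their tests come from a fit with no filter on low values (34331 genes). Atoh7 at day 6 read 0.28 and 0.23 FPKM in WT, 0.81 and 0.74 FPKM in KO, 0.81 and 0.68 FPKM in no Dex, and 0.62 FPKM in both Dex libraries. The 3 lines with the knockout lay above WT, and KO and no Dex overlapped. These values rest on 12 to 47 fragments per library. KO exceeded WT by a log2 change of 0.50 ± 0.05 (limma adjusted p = 3.169e-07) and Dex exceeded WT by 0.37 ± 0.05 (limma adjusted p = 1.868e-05), whereas Dex against no Dex was -0.11 ± 0.05 (limma adjusted p = 0.2089). Atoh7 rose from day 0 to day 6 in all 4 lines, by 0.30 in WT and by 0.67 (Dex) to 0.77 (KO) in the others.

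Atoh1 stayed at or under 0.38 FPKM in all 32 libraries. Its libraries read 0.27 and 0.34 FPKM in Dex at day 0, 0.26 and 0.29 FPKM in KO at day 2, 0.38 and 0.24 FPKM in KO at day 4 and 0.35 and 0.21 FPKM in no Dex at day 6. In WT they read 0.10 and 0.10, 0.14 and 0.06, 0.20 and 0.09, and 0.03 and 0.04 FPKM at days 0, 2, 4 and 6. In the fit with no filter, Dex exceeded no Dex at day 0 by 0.20 ± 0.05 and WT by 0.25 ± 0.05 (limma adjusted p = 0.01149 and 0.001951). KO exceeded WT at day 2 by 0.21 ± 0.05 and at day 4 by 0.19 ± 0.05 (limma adjusted p = 0.004933 and 0.009759). No Dex exceeded KO at day 6 by 0.19 ± 0.05 and Dex was below no Dex by -0.21 ± 0.05 (limma adjusted p = 0.01371 and 0.008367). Of the 8 members, Atoh1 alone was called higher in no Dex than in KO at day 6, at 14 to 23 fragments per library against 8 to 12.

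Counted over the members, KO against WT at day 4 had 2 of the 8 called, Neurod1 higher and Neurog2 lower, against 60.5% of all tested genes called in either direction. Of those calls over all genes 60.3% pointed up in KO, or 49.7% once the libraries were rescaled by median-of-ratios factors. At day 6, 5 members were called higher in KO and none lower, against 30.9% of tested genes called higher. No Dex against KO had 1 member called higher at day 4 (Neurog2), where 9.66% of tested genes were called higher, and 36.3% of calls were higher as deposited against 51.9% after rescaling. At day 6 it had 5 members called lower, against 27.9% of tested genes. Dex against no Dex had 2 members called at day 4 (40.2% of tested genes) and 5 at day 6, Neurog2 higher and Neurog1, Neurod1, Neurod4 and Nhlh1 lower (42.7% of tested genes). Dex against WT had 1 member called higher at day 4 (25.7% of tested genes) and 6 at day 6 (29.2%). No Dex against WT at day 6 also had 6 called higher (27.6%). The Olig2 call in that comparison (0.19) was lost with a pseudocount of 0.1, when only these groups were fitted, and without WT day 6 replicate 2 (0.07), no Dex day 6 replicate 1 (0.18) or no Dex day 6 replicate 2 (0.19). Only 6 of the 8 could be called. Neurog1, Neurod4 and Nhlh1 reached 1 FPKM only at day 6 in lines with the knockout, so these counts are descriptions. KO against WT and no Dex against KO share the KO libraries, and no Dex against KO and Dex against no Dex share the no Dex libraries.

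**Figure D3:**
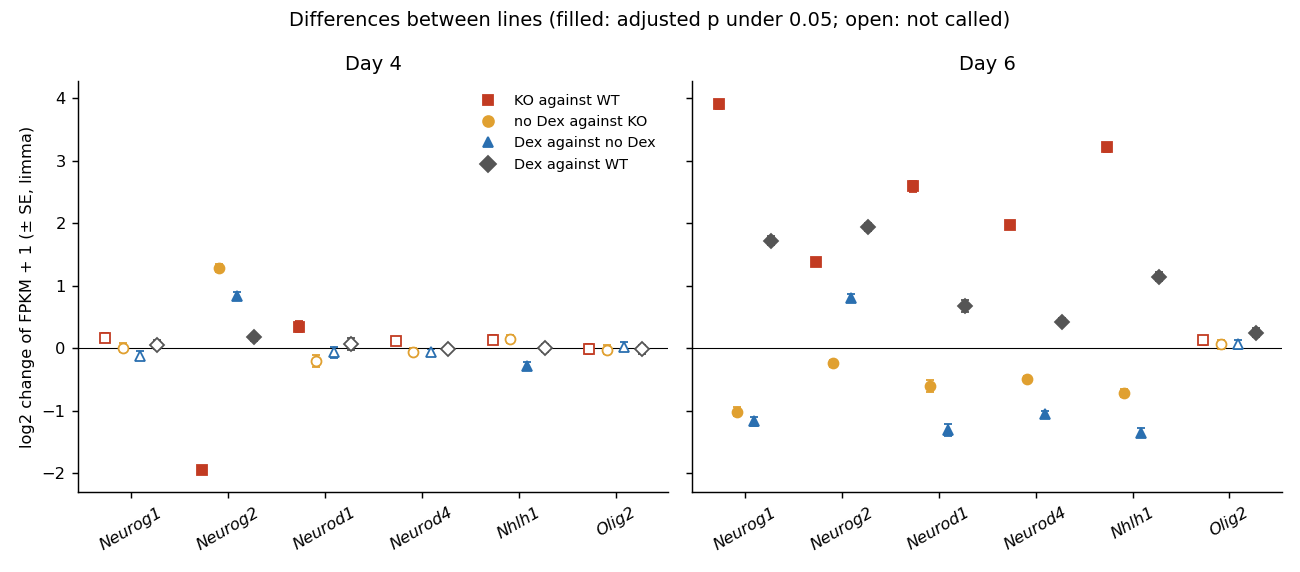
Log2 change of FPKM + 1 (vertical axis, with the limma SE as error bars) for the 6 tested members (horizontal axis) in 4 comparisons at day 4 (left) and day 6 (right), where filled symbols are called and open symbols are not. Neurog2 at day 4 is the only change past 1 in size there (-1.95 for KO relative to WT, 1.28 for no Dex relative to KO), and at day 6 Neurog2 is above 0 in Dex against no Dex while Neurog1, Neurod1, Neurod4 and Nhlh1 are below.

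The change between days 0 and 6 differed between lines for 5 of the members. From day 0 to day 6 the interaction of KO against WT was 4.12 for Neurog1, 3.21 for Nhlh1, 2.75 for Neurod1, 1.97 for Neurod4 and 1.38 for Neurog2 on the log2 scale, all called (31.1% of tested genes were called higher). Olig2 had 0.13 (limma adjusted p = 0.316). For Dex against no Dex the interaction was -2.04 for Neurod1, -1.40 for Nhlh1, -1.23 for Neurog1, -1.11 for Neurod4 and 0.82 for Neurog2 (48.7% of tested genes were called in either direction), and 0.06 for Olig2 (limma adjusted p = 0.6556). Within WT, 4 members were called between days 0 and 6 (78.1% of tested genes): Olig2, Neurog2 and Nhlh1 rose and Neurod1 fell. Within KO and within no Dex 6 members rose (45% and 48% of tested genes were called higher), and within Dex 5 rose and Neurod1 fell (80.4% in either direction). The median of all tested genes itself moved by 0.17 in no Dex and 0.14 in Dex over these days and by -0.03 and -0.01 after rescaling, and 58.6% of the no Dex calls were higher as deposited against 48.5% after rescaling. No member's called direction changed with rescaling.

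Across the 16 group means, Neurod4 and Nhlh1 were most alike, with a Pearson r of 0.99 on the log2 scale, then Neurog1 and Nhlh1 (0.985) and Neurog1 and Neurod4 (0.976). Neurog2 shared little with them (0.275 with Neurog1 and 0.332 with Nhlh1) or with Neurod1 (-0.11). Olig2 had 0.823 with Neurog1, 0.819 with Nhlh1 and 0.759 with Neurod4. Neurod1 had lower values with the same genes (0.46, 0.523 and 0.563), although its order of lines at day 6 was theirs. Over all tested genes, those most like Neurog1 were Prdm12 (0.9899), Slc38a11 (0.9869) and Cdh8 (0.986). The closest to Neurod4 were Clvs1 (0.9968), Nhlh2 (0.9963) and Ebf2 (0.996), and to Nhlh1 they were Nhlh2 (0.9959), Slc38a11 (0.9948) and Ccl17 (0.9926). Sema3a (0.9566), Hcn4 (0.9414) and Rbm24 (0.906) were nearest to Neurog2. Neurod1 had no close partner, the highest being Tfap2e (0.8164), Mfap3l (0.8006) and Mtcl1 (0.7916). Olig2 was followed by Fam181a (0.9974), Pcdh17 (0.9943) and Gm29508 (0.9923). The points are 4 lines at 4 days from the same libraries, and a gene that is high only at day 6 scores well with any other such gene, so these values are descriptions. Prdm12 at day 6 read 0.36 and 0.22 FPKM in WT, 8.85 and 8.88 FPKM in KO, 6.59 and 6.25 FPKM in no Dex, and 2.31 and 2.00 FPKM in Dex, the same order as Neurog1.

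The 250 bases before the start of transcription are shown for genes that were high together in KO at day 6, and for Atoh7, which held the most E-boxes of the 8 promoters. The sequences and starts are RefSeq's on GRCm38.p6, written on the gene's own strand, and capitals mark E-boxes, searched as CANNTG, which reads the same on both strands. These starts can differ from the GENCODE positions given above. The windows of Neurod1 and Atoh7 reach into the gene as GENCODE places it, with the CACCTG sites of Atoh7 inside it. Neurod4 has a further RefSeq start, whose window is not shown.
Neurog1 (chr13:56252181-56252430, minus strand): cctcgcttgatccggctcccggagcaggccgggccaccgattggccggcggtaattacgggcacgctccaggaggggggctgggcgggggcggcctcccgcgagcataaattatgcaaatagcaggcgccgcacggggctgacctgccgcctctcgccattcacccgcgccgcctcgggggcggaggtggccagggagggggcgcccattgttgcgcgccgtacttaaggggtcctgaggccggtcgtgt
Neurod1 (chr2:79456637-79456886, minus strand): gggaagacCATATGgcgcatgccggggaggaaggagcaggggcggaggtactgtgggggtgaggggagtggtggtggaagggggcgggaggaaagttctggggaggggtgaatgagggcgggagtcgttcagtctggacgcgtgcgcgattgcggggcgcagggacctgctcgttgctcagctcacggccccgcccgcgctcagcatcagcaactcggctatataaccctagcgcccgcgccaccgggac
Neurod4 (chr10:130280255-130280504, minus strand): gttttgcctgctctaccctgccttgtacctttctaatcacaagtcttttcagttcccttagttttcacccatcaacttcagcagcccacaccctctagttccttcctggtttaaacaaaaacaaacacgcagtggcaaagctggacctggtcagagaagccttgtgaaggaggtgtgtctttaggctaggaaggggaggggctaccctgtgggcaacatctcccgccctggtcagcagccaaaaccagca
Nhlh1 (chr1:172057597-172057846, minus strand): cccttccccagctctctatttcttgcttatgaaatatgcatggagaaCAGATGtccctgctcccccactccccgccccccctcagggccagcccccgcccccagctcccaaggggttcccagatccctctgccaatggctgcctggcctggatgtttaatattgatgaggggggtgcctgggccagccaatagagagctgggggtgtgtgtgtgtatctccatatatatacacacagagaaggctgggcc
Atoh7 (chr10:63099535-63099784, plus strand): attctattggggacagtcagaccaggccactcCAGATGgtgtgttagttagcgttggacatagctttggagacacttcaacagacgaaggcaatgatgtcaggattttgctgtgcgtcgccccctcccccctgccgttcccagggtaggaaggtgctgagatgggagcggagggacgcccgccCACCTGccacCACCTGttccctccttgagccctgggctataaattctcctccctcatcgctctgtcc
Neurod1 held 1 E-box, CATATG, 242 to 237 bases before the start, Nhlh1 held 1, CAGATG, at 203 to 198 bases, and Atoh7 held 3, the nearest being CACCTG at 57 to 52 bases. Neurog1, Neurod4, Neurog2, Atoh1 and Olig2 held none in this window. Of 32851 mouse promoters of the same length 66.2% held at least 1, against 3 of the 8 members. The N-box CACNAG, a site form bound by Hes repressors, was searched on both strands and found in Neurod4 alone among the 8, where 36.7% of all promoters held it. A match is a description of the letters and not a binding site.

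Other genes of the pathway were described by lists, with counts of called genes. At day 6, KO against WT had 5029 of all 16276 tested genes called higher and 5562 lower. The numbers were 3439 and 4544 in no Dex against KO, and 3867 and 3089 in Dex against no Dex. They are the background for every list below. The first list held 11 further neurogenic bHLH genes. Of these 5 were tested, and all 5 were higher in KO than in WT at day 6, with a median log2 change of 1.95 against -0.03 over all tested genes. Tal2, a midbrain bHLH gene, rose by 2.15, Bhlhe22 by 1.95 and Olig3, a gene of dorsal neural tube progenitors, by 1.62. Nhlh2, the paralog of Nhlh1, rose by 2.01, from 0.11 and 0.23 FPKM in WT to 3.70 and 3.71 FPKM in KO. It was 2.53 and 2.46 FPKM in no Dex and 0.59 and 0.67 FPKM in Dex, the same order as Nhlh1. In no Dex against KO 3 of the 5 fell (median -0.27, against -0.01 over all genes), Bhlhe22 by 0.98, Nhlh2 by 0.43 and Bhlhe23 by 0.27. In Dex against no Dex all 5 fell (median -0.80, against 0.01), with Tal2 at -1.58, Nhlh2 at -1.10, Olig3 at -0.80 and Bhlhe23 at -0.73. The E proteins Tcf3 (-0.04), Tcf4 (-0.12) and Tcf12 (-0.01), dimer partners of the members, were not called in KO against WT at day 6 (limma adjusted p = 0.2151, 0.202 and 0.8305). In Dex against no Dex Tcf12 (-0.47) and Tcf4 (-0.42) fell and Tcf3 (0.45) rose.

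Repressors and inhibitors of the family moved in both directions. Of 11 such genes, all tested, 7 rose and 4 fell in KO against WT at day 6 (median 0.34, against -0.03 over all tested genes). Hes1, a Notch-driven repressor of proneural genes, fell by 2.69, from 190.4 and 173.8 FPKM in WT to 27.6 and 27.3 FPKM in KO, and read 54.8 and 53.8 FPKM in no Dex and 83.7 and 84.7 FPKM in Dex. Hes3 and Hes5, repressors kept in neural progenitors, rose instead, by 4.53 and 3.24, and Id1 rose by 2.05. In no Dex against KO 4 rose and 5 fell (median -0.04, against -0.01), with Id4 at 2.31, Hes5 at -1.03, Hes1 at 0.96 and Hes3 at -0.93. In Dex against no Dex 3 rose and 4 fell (median -0.13, against 0.01), with Id4 at 2.01, Hes3 at -1.81, Hes1 at 0.62 and Heyl at -0.53. At day 4, 6 rose and 3 fell in KO against WT (median 0.31, against 0.06), where 60.5% of all tested genes were called in either direction. Hes1 (0.90) and Hes3 (0.81) were higher and Id3 (-0.72) and Id1 (-0.54) lower in KO than in WT. Hes1 was already higher (0.90) and Id3 lower (-0.70) in KO at day 2, when no library exceeded 0.1 FPKM of Neurog2. A relation of these genes to the low Neurog2 of KO at day 4 was not tested.

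Known targets of proneural factors and early neuron genes were mostly higher in KO at day 6. Of 18 such genes 17 were tested, 16 rose and 1 fell, with a median of 1.38 against -0.03 over all tested genes. Gadd45g rose by 3.43 and Insm1, a factor of newborn neurons, by 3.36, from 0.71 and 0.65 FPKM in WT to 16.67 and 15.83 FPKM in KO. Tubb3, the neuronal beta-tubulin, rose by 3.15, from 29.5 and 28.9 FPKM to 267.9 and 264.4 FPKM, and Ebf3 by 2.23. In no Dex against KO 14 of the 17 fell and none rose (median -0.33, against -0.01), led by Insm1 (-1.08), Gadd45g (-0.80), Cbfa2t3 (-0.69) and Dll3 (-0.68). In Dex against no Dex 15 fell and none rose (median -0.74, against 0.01), led by Stmn2 (-1.39), Ebf3 (-1.17), Elavl3 (-0.89) and Elavl4 (-0.88). At day 4 the same list was mixed in KO against WT, with 8 higher and 4 lower (median 0.12, against 0.06 over all genes): Insm1 (-1.32) and Elavl3 (-0.92) were lower while Hes6 (0.72) and Dll1 (0.63), a Delta ligand, were higher. Of all 16276 tested genes 5946 were then called higher and 3909 lower in KO.

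Of 8 retinal ganglion cell genes, the neuron type that depends on Atoh7, 5 rose and 1 fell in KO against WT at day 6 (median 0.82, against -0.03 over all tested genes). Over all 16276 tested genes 5029 rose and 5562 fell. Gap43, a growth cone gene of many neuron types, rose by 3.22 and Pou4f1, also a gene of sensory and midbrain neurons, by 3.15, from 1.5 and 1.72 FPKM to 21.47 and 22.88 FPKM. Onecut2 and Onecut1 rose by 1.03 and 1.02. Pou4f2 (0.08) and Isl1 (0.21) were not called, and the gene that fell was not among the 4 called genes of largest change. In no Dex against KO 1 rose and 2 fell (median -0.15, against -0.01), with Isl1 at 0.75. Over all 16276 tested genes 3439 rose and 4544 fell in that comparison, so the list count is a description only. In Dex against no Dex 1 rose and 5 fell (median -0.58, against 0.01), with Isl1 at -0.95, Onecut1 at -0.94, Pou4f1 at -0.80 and Onecut2 at -0.76. Over all 16276 tested genes 3867 rose and 3089 fell there. All lists were chosen with earlier results of these data known, and no direction of a called gene in them changed with rescaling at days 4 and 6.

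**Figure D4:**
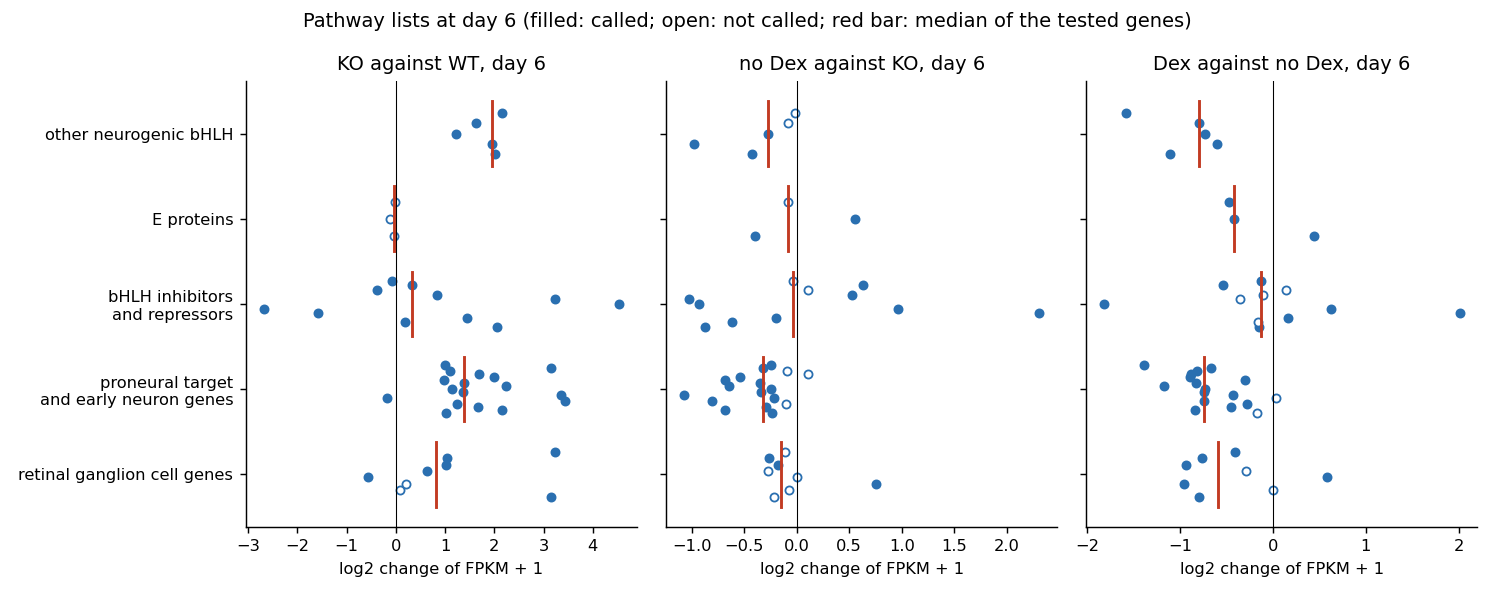
Log2 change of FPKM + 1 (horizontal axis, a scale of its own in each panel) at day 6 for the tested genes of 5 pathway lists (vertical axis) in 3 comparisons, where each point is a gene, filled if called, and a red bar is the list's median. The medians of the other neurogenic bHLH genes and of the target and early neuron genes lie above 0 for KO relative to WT (1.95 and 1.38) and below 0 for no Dex relative to KO (-0.27 and -0.33) and in Dex against no Dex (-0.80 and -0.74).

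Markers of cell types that retinal organoids need not hold also differed between the lines at day 6. The summed level of 6 midbrain and dorsal neural tube markers (En1, En2, Pax3, Pax7, Wnt1 and Lmx1a) was 5.46 and 5.48 FPKM in WT, 116 and 118 FPKM in KO, 74.0 and 76.2 FPKM in no Dex, and 24.7 and 25.1 FPKM in Dex, the order of Neurog1, Neurod1, Neurod4 and Nhlh1. Of the 6, 2 had a group mean of at least 1 FPKM in WT, 6 in KO and 4 in each of the other lines, and none was at 0. The 5 neural crest markers (Sox10, Foxd3, Tfap2a, Tfap2b and Ets1) summed to between 2.98 and 3.21 FPKM in WT, 46.4 and 47.1 FPKM in KO, 52.1 and 52.7 FPKM in no Dex, and 19.9 and 20.8 FPKM in Dex, highest in no Dex. Neuron markers (Elavl3, Elavl4, Dcx, Tubb3 and Stmn2), 4 or 5 of the 5 at 1 FPKM or more, summed to 42.3 and 44.3 FPKM in WT, 303 and 308 FPKM in KO, 244 and 247 FPKM in no Dex, and 146 and 147 FPKM in Dex. In day 0 stem cells this sum was already 336 and 340 FPKM in WT and 296 and 311 FPKM in KO. It was 314 and 321 FPKM in no Dex and 309 and 311 FPKM in Dex at that day. The sum is therefore not particular to neurons in this series. The part of these cell types in the members' differences was not tested.

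The remaining marker lists were ordered otherwise. Neural progenitor markers (Sox1, Sox3, Nes and Fabp7) summed to 273 and 282 FPKM in WT and to between 427 and 442 FPKM in the other lines. Pluripotent stem cell markers (Pou5f1, Nanog, Zfp42, Klf4, Esrrb and Tdgf1) were at 86.1 and 86.7 FPKM in WT and between 28.4 and 33.4 FPKM in the others at day 6. Ventral neural tube markers (Foxa2, Nkx2-2, Nkx6-1, Nkx6-2 and Shh) summed to 6.94 and 7.72 FPKM in WT and to at most 2.92 FPKM in the other lines, with 1 of the 5 at 0 in no Dex. Mesendoderm markers (T, Eomes, Gsc, Mixl1, Sox17 and Foxa2) summed to 25.3 and 25.6 FPKM in WT, at most 1.78 FPKM in KO and no Dex, and 4.41 and 5.10 FPKM in Dex. Their part in the results was not tested. At day 4, where Neurog2 was lowest in KO, the retinal progenitor sum was 123 and 125 FPKM in WT, 21.8 and 21.9 FPKM in KO, 60.3 and 61.2 FPKM in no Dex, and 309.7 and 310.2 FPKM in Dex. This is the order of Neurog2 at that day, and the part of retinal progenitor number in the Neurog2 difference was not tested.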

How the data were processed

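Polyadenylated RNA of 32 mouse libraries (16 groups of 2) was sequenced as paired-end reads, per the labels' protocols. STAR and Cuffdiff, with the mouse build mm10, are named in the submitters' processing notes, and their settings and the gene annotation are not given in the sources used here. The authors deposited 1 table of FPKM per gene and library, rounded to 2 decimals, with 55492 rows, and every library column matched a sample title. Of the rows 99.37% matched GENCODE M21 (GRCm38) by gene ID, which gave positions and exons.

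The depth of each library was found by searching for the number of fragments that makes low FPKM values whole, over 10627 genes with about 300 bases trimmed from transcript length. Depending on the library, 90.5% to 93.9% of such values came out whole within a tolerance of 0.2, where 40% would if spread evenly. The fragment numbers are estimates, so no count test was run.

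Tests used limma 3.58.1 in R 4.3.3 on log2(FPKM + 1), with a pseudocount of 1 and a mean-variance trend. A gene needed at least 1 FPKM in at least 2 libraries (16276 genes). The fit held all 32 libraries and had 16 residual degrees of freedom, and calls were made at a two-sided Benjamini-Hochberg adjusted p under 0.05. The fit was tested on simulated data.

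The members and lists were chosen with earlier results of these data known. Some genes of the lists are not reported here and were left out of the lists' counts, medians and sums. Named genes were all 8 members, at most 4 called genes of largest change per list and comparison, and the 3 genes of highest Pearson r with each tested member. Pou4f2, Isl1, Tcf3, Tcf4, Tcf12 and Cerkl were also named, outside that rule, after their values were seen. Tried as alternatives were no filter on low values, a pseudocount of 0.1, rescaling by median-of-ratios factors, fitting only the compared groups, a replicate block, a log2 change of at least 1, and leaving out each library in turn.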

Additional observations from a re-analysis of the deposited data

Results flagged for a closer look

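For 5 members, KO and WT differed in how far the level moved between days 0 and 6, by a test of that difference itself (limma interaction, 2 libraries per group). The differences on the log2 scale were 4.12 for Neurog1 (limma adjusted p = 1.043e-16), 3.21 for Nhlh1 (1.165e-15), 2.75 for Neurod1 (1.515e-12), 1.97 for Neurod4 (2.87e-14) and 1.38 for Neurog2 (9.822e-11). Between Dex and no Dex the same test gave -2.04 for Neurod1 (limma adjusted p = 3.348e-10), -1.40 for Nhlh1 (6.605e-10), -1.23 for Neurog1 (1.259e-08), -1.11 for Neurod4 (3.608e-10) and 0.82 for Neurog2 (2.837e-07). The Neurod1 value for Dex includes its day 0 difference, where Dex stem cells read 2.51 and 2.79 FPKM and no Dex stem cells 1.34 and 1.06 FPKM. Nhlh1, Neurod4 and Neurog2 were near 0 at day 0 in all lines. For them the KO test mostly repeats the day 6 difference (3.21, 1.97 and 1.38). Of all tested genes 31.1% were called higher in the KO test, and 48.7% were called in either direction in the Dex test. Days 2 and 4 do not enter these tests. Outlying libraries were not tested, as groups held 2 libraries.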

How the results depend on the processing

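No called member changed direction under any alternative run. For KO against WT at day 4 the number of members called was 2, and 4 with a pseudocount of 0.1, 4 with no filter on low values, 1 with a log2 change of at least 1, and 1 to 2 with each library left out in turn. Dex against no Dex at day 4 had 2, 0 with a log2 change of at least 1, 1 when only the compared groups were fitted, and 1 to 2 with a library left out. For Dex against WT at day 4 it was 1, and 0 with a pseudocount of 0.1, with no filter, after rescaling, with a log2 change of at least 1, when only the compared groups were fitted, and with any library left out. For no Dex against KO at day 4 it was 1, and 1 to 2 with a library left out. At day 6, a log2 change of at least 1 left 1 of the 5 members in no Dex against KO and 3 of the 6 in Dex against WT, and 0 of the 4 in WT from day 0 to day 6. With each library left out in turn, the day 6 counts were 5 to 6 for KO against WT, 4 to 5 for no Dex against KO, 5 for Dex against no Dex and 5 to 6 for Dex against WT. The cause of these changes was not tested, other than that leaving out a library leaves a lone sample, assumed to vary like the other groups, and that a larger required change lowers any count. The replicate numbers did not pair the samples (deviations of same-numbered libraries correlated at r of -0.088 to 0.13, median 0.0029, over 120 pairs of groups). A replicate block gave 3 members for KO against WT at day 4, adding Neurog1 (0.17), and changed no other count.

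Depth limits Atoh1, Atoh7, the WT levels of Neurog1, Neurod4 and Nhlh1, and the WT level of Neurog2 at day 6, which rest on few fragments. Differences between libraries near 3 fragments were not detectable at this depth.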

Other observations

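Of the dimer partners of the members, Tcf12 and Tcf4 rose in every line between days 4 and 6. From day 0 to day 2, 1 of the 3 E protein genes was called lower in each line. From day 4 to day 6 Tcf12 rose by 1.83 in WT, 1.52 in KO, 1.52 in no Dex and 0.82 in Dex on the log2 scale (all called by limma), from 12.8 and 12.5 FPKM to 46.2 and 48.8 FPKM in WT. Tcf4 rose by 1.41 in WT, 1.05 in KO, 1.71 in no Dex and 1.24 in Dex. Tcf3, the most abundant of the 3 E protein genes, moved less, by 0.19 in WT, 0.46 in KO and -0.15 in no Dex, and its change of -0.04 in Dex was not called (limma adjusted p = 0.288).

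Most inhibitors of the family were higher at day 4 than at day 2. Of 11 genes 7 rose and 2 fell in WT, 8 rose and 2 fell in KO and in no Dex, and 8 rose and 1 fell in Dex. The median changes were 0.84, 0.91, 1.17 and 1.32 in WT, KO, no Dex and Dex, against 0.04, 0.03, 0.03 and 0.09 over all tested genes. Of all 16276 tested genes 5578 rose and 4172 fell in WT. The numbers were 5780 and 4675 in KO, 5481 and 4418 in no Dex, and 6661 and 4199 in Dex. Id1 rose by 2.60 in WT, from 33.75 and 32.99 FPKM to 205.4 and 210.6 FPKM, and by 2.18 in KO. Id2 rose by 2.69 in WT and 1.73 in KO, and Hes5 by 2.23 in WT and 2.49 in KO. Over days 4 to 6 Neurog2 and Neurod1 fell in WT. Of the 17 tested target and early neuron genes, 11 fell there and 3 rose (median -0.47, against 0.10 over all tested genes). Stmn2 (-2.47), Elavl3 (-2.37) and Tubb3 (-2.01) led the list, with Dll1 at 1.92. Of all 16276 tested genes 6788 rose and 4074 fell in WT over those days. The other lines differed, with 13 of the 17 called higher and 2 lower in KO (5674 and 4959 of all tested genes). The counts were 10 and 4 in no Dex (5988 and 5060), and 8 and 8 in Dex (6083 and 4515). Neurog2 fell in no Dex (-0.83) and in Dex (-0.86) as well, and a relation of the list to it was not tested.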
